A study of Mus musculus with 24 samples.

Results

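Within stretches of H3K4me3 shared by wild-type and KDM1A-knockdown leukemic splenocytes, 1967 short regions were listed as unique to the wild type although shared signal met them on both sides. They were chosen by list, length and contact. A member is a region unique to the wild type (WT region) on autosomes 1 to 14 or 16 to 19, shorter than 1000 bp, whose start and end are each met by a different region common to both conditions, with a gap of at most 1 bp. These 18 autosomes held 5015 WT regions, so the members, called flanked WT regions here, made up 39.2% of them (95% Wilson interval 37.9 to 40.6%). As background, 8.58% of the 58479 listed regions of these autosomes were unique to the wild type and 22.4% were unique to the knockdown (KD regions). The rule used the direction of the difference, so neither share is a result about the members.

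Chromatin immunoprecipitation and sequencing of H3K4me3 was done on splenocytes of leukemic Eµ-TCL1A mice on the C57BL/6 strain. The TCL1A transgene, driven in B cells by the Eµ enhancer, gives a disease resembling chronic lymphocytic leukemia, and both conditions carry it. Wild-type cells were labelled as without treatment and the others as KDM1A knockdown. There were 24 libraries, 6 in each of 4 groups: immunoprecipitated and input DNA of either condition, from 3 biological replicates measured in 2 technical replicates. The labels do not say how the knockdown was made, nor the sex or age of the animals. Spleen also holds other cells, and the labelled cell type was not checked against marker genes, since no region was assigned to a gene.

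H3K4me3 is trimethylation of lysine 4 of histone H3. It is deposited by SET1 and MLL (KMT2) complexes and marks the promoters of active genes, mostly as a stretch of modified nucleosomes on both sides of the start site, where nucleosomes are depleted. KDM1A (LSD1) is a demethylase of the mono- and dimethylated forms of this lysine that cannot act on the trimethylated form, and it works with the corepressor RCOR1 and histone deacetylases. Which genes the flanked WT regions lie at was not analysed here, because the gene table at hand is for another build, and no sequence is printed for the same reason.

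The deposited lists hold 1 score per region and no value per library, count or depth. No spread over replicates can be taken from them, and no p-value is given. Shares carry 95% Wilson intervals and medians carry 95% intervals from order statistics, which hold for counting error alone and take each region as independent of the others. Ranges across the 18 autosomes are given for some of them.

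The lists overlapped each other, which sets what "unique" and "common" can mean at these sites. Within each list the shortest region was 200 bp, the smallest gap between neighbours was 101 bp and no rows overlapped. WT regions overlapped no KD region on the 18 autosomes, but most flanked WT regions overlapped their flanks. Of the 1967, 801 (40.7%) overlapped the common region at both ends, 798 (40.6%) at 1 end, and 368 (18.7%, interval 17.05 to 20.5%) met both flanks without overlapping them. The median member had 8.18% of its length inside a common region (quartiles 1.13 and 27.9%), and 200 members (10.2%) had more than 50% there. What lay outside common sequence had a median of 369 bp (quartiles 244 and 489 bp) and a minimum of 101 bp. No common regions lay closer together than 101 bp, so the lists show no shorter break.

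Every WT region of the 18 autosomes could be placed by its contact. Besides the 1967 members, 170 WT regions had a common region at both ends but were 1000 bp or longer. A further 356 lay wholly within 1 common region, 883 met a common region at 1 end, 18 held a common region inside and met none at either end, and 1621 had no contact. At the length limit, the longest members measured 999, 998 and 995 bp, with scores of 5.82, 7.30 and 4.60, and the shortest regions left out measured 1000, 1002 and 1013 bp, with scores of 5.70, 8.31 and 5.83. The region closest to the contact limit had a wider gap of 2 bp and a score of 4.61, and 36 WT regions had a wider gap of 2 to 100 bp.

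Flanked WT regions were a few nucleosomes long and lay between longer shared regions. Their median length was 424 bp (interval 413 to 436 bp, quartiles 322 and 551 bp), against 338 bp for the 2339 other WT regions under 1000 bp. Among those others it was 402 bp with contact at 1 end, 351 bp without contact and 259 bp within 1 common region. It was 721 bp for the 7 that only held a common region. The shorter of the flanking common regions had a median of 946 bp (896 to 1000 bp, quartiles 475 and 1649 bp), and the longer one a median of 2047 bp (1976 to 2124 bp, quartiles 1149 and 3072 bp). Both flanks measured at least 1000 bp for 940 members (47.8%, interval 45.6 to 50%), and the shorter flank was under 300 bp for 163 (8.29%). Left and right flanks did not differ in length beyond their intervals, with medians of 1378 bp (1307 to 1457 bp) and 1453 bp (1378 to 1525 bp). The left flank was the longer one for 982 of 1967 members.

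**Figure D1:**
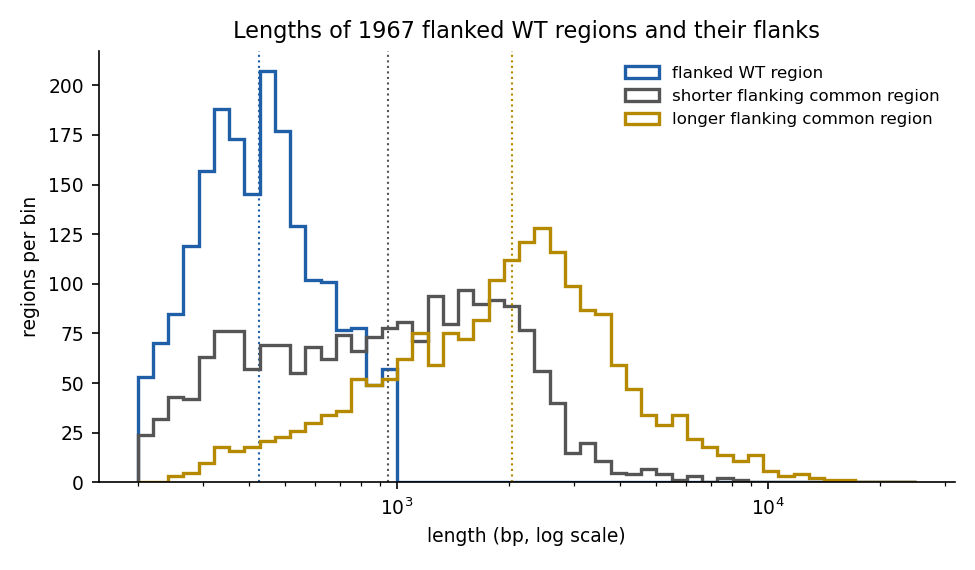
Number of regions per bin (vertical axis) by length in bp on a log axis, for the 1967 flanked WT regions, the shorter flanking common region and the longer one. Dotted lines mark the medians of 424, 946 and 2047 bp, and the members stop at the 1000 bp limit of the rule.

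The flanks of a member were of similar size more often than those of a KD region in the same setting. The same rule applied to the KD list gave 2526 flanked KD regions, 19.3% (18.6 to 19.99%) of 13088. The longer flank was at most 2 times the shorter for 1114 flanked WT regions (56.6%, interval 54.4 to 58.8%) and for 950 flanked KD regions (37.6%, 35.7 to 39.5%). It was more than 5 times the shorter for 192 flanked WT regions (9.76%) and 646 flanked KD regions (25.6%). The median ratio was 1.82 (1.75 to 1.87) and 2.63 (2.52 to 2.76). The shorter flank of flanked KD regions had a median of 559 bp (541 to 585 bp), and the median was higher in WT on 18 of 18 autosomes. The longer flanks had medians close to each other, 2047 and 2056 bp. Both lists come from 1 comparison of the conditions, and these differences were not tested over replicates.

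Common regions that flank a member were longer than common regions in general. The 3934 ends of the members were met by 3775 different common regions, 9.35% of the 40376 on these autosomes, and 159 of them lay between a pair of members. Their median length was 1465 bp (1416 to 1518 bp), against 873 bp (858 to 889 bp) for all common regions and 743 bp (725 to 762 bp) for the 28006 whose sequence met the end of no WT or KD region. The flanks of flanked KD regions were also longer than common regions in general, with a median of 1047 bp (1001 to 1097 bp). The score of a common region gives no direction. It had a median of 0.630 (0.611 to 0.645) in the flanks of members and 0.992 (0.970 to 1.02) in the flanks of flanked KD regions. The median was 0.507 in all common regions and 0.408 in those that met the end of no WT or KD region.

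Most members lay in the middle part of their stretch. A stretch is a run of regions of any list with gaps of at most 1 bp, and position was measured at a member's midpoint, from 0 at the left end to 1 at the right end. The median position was 0.498 (0.485 to 0.507) with quartiles of 0.371 and 0.631. Of the members, 1219 (62.0%, interval 59.8 to 64.1%) had their midpoint between 0.333 and 0.667 of the stretch, and 33 (1.68%, 1.20 to 2.35%) within 0.1 of an end. The rule itself keeps members off the very end, since a flank of at least 200 bp must lie on each side, and it did so for flanked KD regions too. Of those, 970 (38.4%, 36.5 to 40.3%) lay in the middle part and 253 (10.02%, 8.91 to 11.2%) within 0.1 of an end. Folded to the nearer end, so that 0.5 is the centre, the median position was 0.370 (0.365 to 0.378) for flanked WT and 0.279 (0.269 to 0.289) for flanked KD regions.

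**Figure D2:**
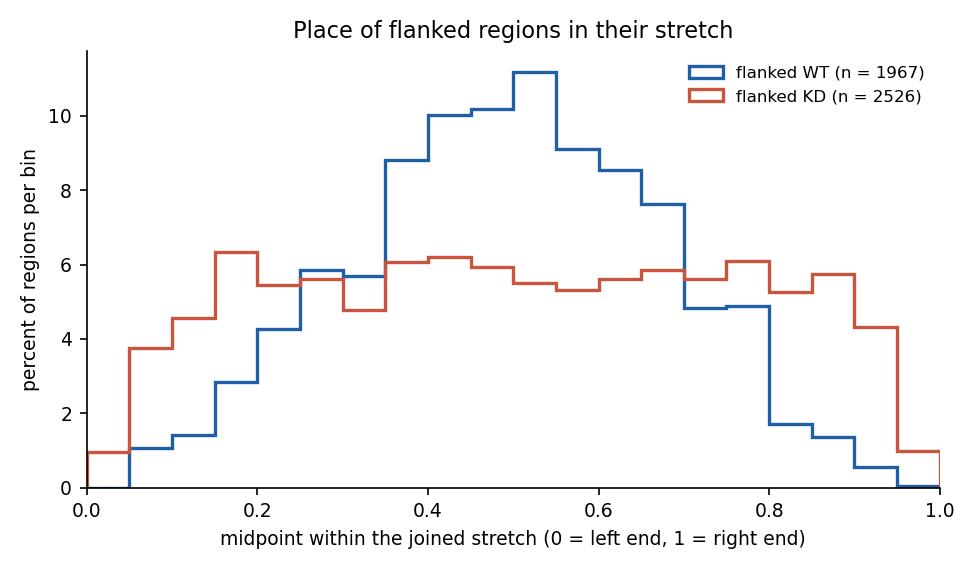
Percent of regions per bin (vertical axis) by the midpoint's position in the joined stretch, from 0 at the left end to 1 at the right end, for 1967 flanked WT and 2526 flanked KD regions. Flanked WT regions rise to a peak near the centre with a median of 0.498, and flanked KD regions are spread more widely, with quartiles of 0.289 and 0.726 against 0.371 and 0.631.

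The central place of the members held on each autosome. Their median folded position ranged from 0.352 on chromosome 14 to 0.389 on chromosome 9, and that of flanked KD regions from 0.263 on chromosome 9 to 0.331 on chromosome 2, so the ranges did not overlap. The share in the middle part ranged from 55.1% (chromosome 14) to 72.0% (chromosome 9) for WT and from 31.7% (chromosome 6) to 50% (chromosome 2) for KD, and it was higher for WT on 18 of 18. In stretches made of a single region with a common region on each side and nothing else, the share was 65.9% (63.2 to 68.5%) of 1247 flanked WT and 41.4% (38.4 to 44.5%) of 1010 flanked KD regions. The lists thus also differed among stretches of this simplest kind. In such a stretch the position is set mainly by the lengths of the 2 flanks, so it largely restates their ratio. The longer flank was at most 2 times the shorter for 60.2% of these flanked WT and 37.5% of these flanked KD regions.

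Most stretches with a member held only 1. The 1967 members lay in 1805 stretches with a median length of 4107 bp, close to the 4250 bp of the 2015 stretches with a flanked KD region. The median over all 35188 stretches with a common region was 1094 bp, but 27605 of these were 1 common region alone, while the rule asks for at least 3 regions. A member took up a median of 10.3% of its stretch (quartiles 6.70 and 17.2%), and its midpoint lay a median of 1400 bp (1356 to 1458 bp) from the nearer end. Exactly 1 member was found in 1670 stretches (92.5%, interval 91.2 to 93.6%), 2 in 115, 3 in 16, 4 in 2, 5 in 1 and 6 in 1. For flanked KD regions, 357 of 2015 stretches (17.7%, 16.1 to 19.4%) held 2 or more, against 135 of 1805 (7.48%, 6.35 to 8.79%) for flanked WT regions, and the most in 1 stretch was 8.

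The simplest order was also the usual one. A stretch of 1 common region, 1 WT region and 1 common region accounted for 1247 of the 1805 (69.1%), with a median length of 3774 bp. Next came, in the order of their starts, 3 common regions alternating with 2 WT regions (92 stretches, 5.10%, median 4466 bp). The simplest order followed by the start of a further WT region made up 62 stretches (3.43%), and preceded by it 34 (1.88%). Such a further region can lie within the last common region, so the order does not place it at an end. KD regions occurred in 262 of the 1805 stretches (14.5%), and 144 stretches held both a flanked WT and a flanked KD region. In these, shared H3K4me3 was divided by pieces called in opposite directions.

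Longer stretches held a member more often. A flanked WT region was present in 27 of 16825 stretches under 1 kb (0.160%), in 4.38% (3.89 to 4.92%) of 6054 from 1 to 2 kb, in 8.29% (7.67 to 8.96%) of 6934 from 2 to 4 kb, in 16.8% (15.8 to 17.95%) of 4596 from 4 to 8 kb and in 21.1% (18.3 to 24.1%) of 779 of 8 kb or more. The shares with a flanked KD region were 0.256% (0.190 to 0.344%) under 1 kb and 5.22% (4.69 to 5.81%) at 1 to 2 kb, somewhat above these, with intervals that overlap. They were close to the WT shares at 2 to 4 kb, 8.15% (7.53 to 8.82%), and at 4 to 8 kb, 16.7% (15.7 to 17.8%). In stretches of 8 kb or more, 41.3% (37.9 to 44.8%) held a flanked KD region. Short stretches have little room for 2 flanks. A stretch with a member also joins at least 3 regions and is longer for it. The rise is therefore partly built into the rule at all lengths, and is no result about long stretches as such.

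**Figure D3:**
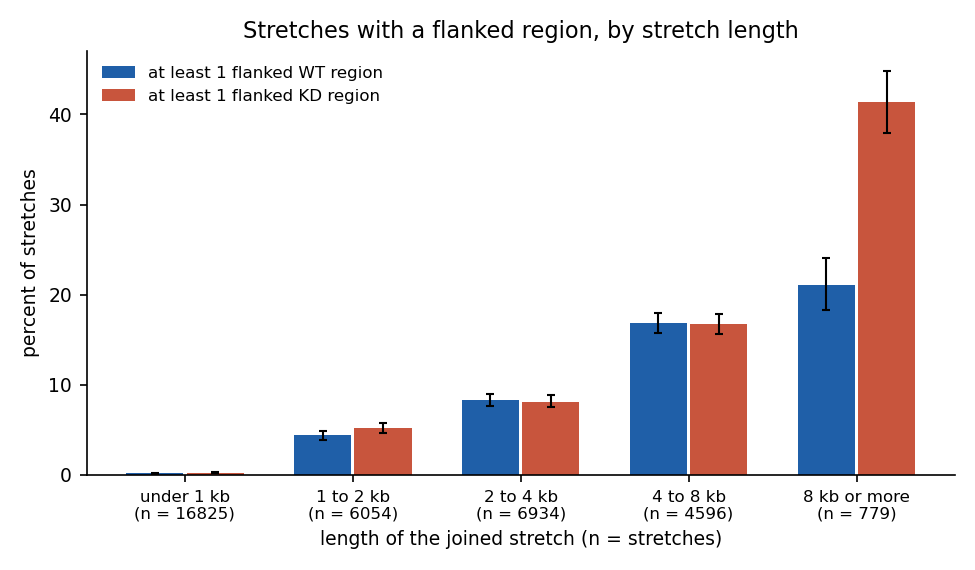
Percent of joined stretches (vertical axis) that held at least 1 flanked WT or at least 1 flanked KD region, by length of the stretch, with 95% Wilson intervals as bars and the number of stretches under each class. Both shares rise with length, and they lie farthest apart at 8 kb or more, where they are 21.1% for WT and 41.3% for KD.

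In stretches of all but the shortest class, members were more central than flanked KD regions of stretches of the same length. The median folded position was 0.393 against 0.350 at 1 to 2 kb, 0.373 against 0.288 at 2 to 4 kb, 0.375 against 0.245 at 4 to 8 kb and 0.296 against 0.239 at 8 kb or more. Under 1 kb, where the flanks leave little choice, it was 0.434 for 27 members and 0.418 for 43 flanked KD regions. The distance from a member's midpoint to the nearer end grew with the stretch, from a median of 594 bp at 1 to 2 kb to 1935 bp at 4 to 8 kb and 2973 bp at 8 kb or more. This growth is largely built in, since the distance is the folded position times the length of the stretch. The members' own median length was 312 bp in stretches under 1 kb and between 407 and 446 bp in the other classes.

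The scores of the members are part of the rule's own comparison and are given as a description. They ranged from 3.35 to 28.1 with a median of 5.70 (5.53 to 5.91, quartiles 4.30 and 9.09). The 2339 other WT regions under 1000 bp had a median of 4.57 (4.48 to 4.65), and flanked KD regions one of 4.34 (4.31 to 4.38, quartiles 3.96 and 4.94). These other WT regions were mixed, with medians of 5.02 without contact, 4.73 with contact at 1 end and 3.47 within 1 common region. With no length limit, WT regions without contact had a median of 5.79 and those with a common region at both ends 5.78. The upper part of the range was well filled on the WT side, where 393 members (19.98%, interval 18.3 to 21.8%) scored at least 10, against 43 flanked KD regions (1.70%, 1.27 to 2.29%). Members made up 43.8% (42.3 to 45.2%) of all flanked WT and KD regions and 90.1% (87.0 to 92.6%) of the 436 that scored at least 10. Seen from the lists, 46.5% (43.2 to 49.9%) of WT regions scoring at least 10 and 5.76% (4.30 to 7.66%) of such KD regions were flanked.

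High-scoring members were longer, sat between longer flanks and overlapped them less. The 311 members scoring below 4 had a median length of 318 bp, a median shorter flank of 679 bp and a median overlap of 50.4% of their length. For the 732 scoring 4 to 6 these were 355 bp, 729 bp and 16.7%, and for the 531 scoring 6 to 10 they were 436 bp, 1177 bp and 2.54%. The 315 scoring 10 to 15 had medians of 510 bp, 1400 bp and 0.909%, and the 78 scoring 15 or more had 625 bp, 1523 bp and 0.958%. The score of the flanks, averaged over both, went the other way, with a median of 0.999 for members scoring below 4, 0.513 at 10 to 15 and 0.518 at 15 or more. Length and score both come from the list that the rule used.

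Members were central at every score. The share with the midpoint in the middle part was 55.3% (49.7 to 60.7%) below a score of 4, 62.2% (58.6 to 65.6%) at 4 to 6, 61.6% (57.4 to 65.6%) at 6 to 10, 67.0% (61.6 to 71.9%) at 10 to 15 and 69.2% (58.3 to 78.4%) at 15 or more. Among flanked KD regions it was 36.9% (33.4 to 40.5%) below 4, 38.1% (35.8 to 40.5%) at 4 to 6 and 41.8% (34.6 to 49.3%) at 6 to 10, all below the WT share of the same class. In the classes of higher score, the share was 71.4% (50.04 to 86.2%) of 21 flanked KD regions at 10 to 15 and 50% (30.7 to 69.3%) of 22 at 15 or more. These intervals are wide and overlap those of the WT classes, so no difference was detectable at that number.

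The 10 members with the highest scores lay on 6 chromosomes, 3 of them on chromosome 10. The highest, at chr10:9776452-9777416 (GRCm39), was 965 bp long and scored 28.1, between common regions of 1753 and 655 bp in a stretch of 3206 bp. The next, at chr10:84369346-84370220, scored 27.8 over 875 bp, and its flanks of 4793 and 3466 bp gave a stretch of 9123 bp in which it stood at position 0.572. At chr3:40904244-40905104, a member of 861 bp with a score of 23.7 stood at the centre of its stretch (position 0.498), between flanks of 1975 and 1803 bp, and a KD region formed the right end of the same stretch. At chr5:143255322-143255834 a member of 513 bp scored 22.1 and met flanks of 1155 and 1951 bp with no overlapping base.

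The other 6 of these scored between 19.7 and 21.8. At chr14:61676656-61677283 the member (score 21.8, 628 bp) lay towards the right end, with flanks of 2283 and 362 bp and a KD region in the same stretch. The member at chr3:144425390-144426094 scored 21.2 between flanks of 5467 and 1793 bp, and the one at chr2:80410873-80411665 scored 20.4 between flanks of 1064 and 686 bp. On chromosome 4, chr4:33031213-33031918 scored 20.1 and stood at position 0.476 of 5664 bp, and chr4:154096194-154096815 scored 20.03 and stood at 0.413 of 4690 bp. The last, chr10:26249852-26250623 (score 19.7), had flanks of 911 and 246 bp and shared its stretch of 4526 bp with a second WT region. Of the 10 members, 7 had a folded position above 0.3, and overlap with the flanks ranged from 0 to 17.3% of the length.

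Few stretches held a string of members, and those in company scored lower. The 297 members that shared a stretch with another had a median score of 4.68 (4.44 to 4.88), against 6.06 (5.78 to 6.29) for the 1670 that stood alone, and nearly the same median length, 418 and 425 bp. Neighbouring members of 1 stretch were separated by a median of 936 bp from midpoint to midpoint (quartiles 746 and 1408 bp), and in 159 of 162 pairs 1 common region filled the gap.

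The stretch with the most members lay on chromosome 6 at chr6:47777740-47792052. Its 14313 bp held 9 common, 8 WT and 1 KD region, and 6 of the WT regions met the rule, with lengths of 311 to 972 bp and scores of 3.95 to 5.69. On chromosome 13, chr13:103033929-103043702 alternated 6 common regions with 5 members over 9774 bp, with scores of 3.89 to 5.15. A pair of stretches held 4 members each. At chr18:75498337-75507457 the scores ran from 3.77 to 18.6, the highest belonging to a member of 977 bp, and at chr7:116979090-116984382 they ran from 3.81 to 14.5 within 5293 bp. No member of the stretches on chromosomes 6 and 13 scored above 5.69, whereas those on chromosomes 18 and 7 each held a member scoring over 10.

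**Figure D4:**
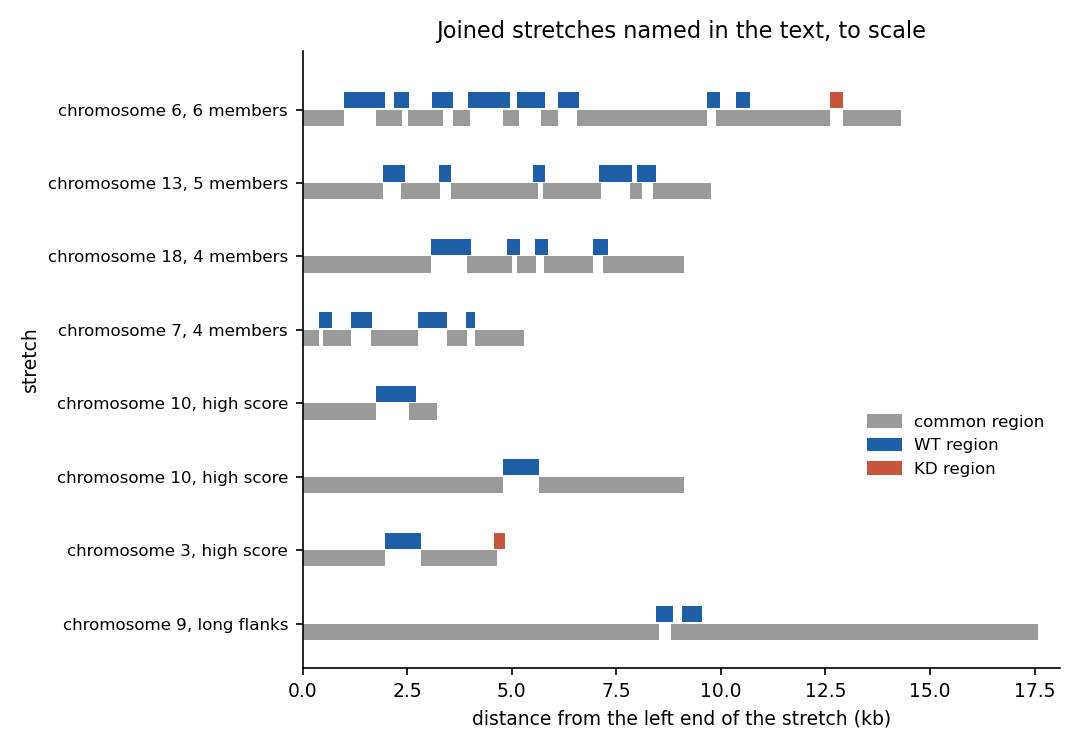
The 4 stretches with the most members, the stretches of the 3 highest-scoring members and the stretch with the longest shorter flank, drawn to scale from the left end of each stretch (horizontal axis, kb). Grey bars are common regions, and blue and red bars above them are WT and KD regions. Members lie over the breaks between common regions and overlap their ends by up to 66.6% of the member's length, and they recur 6 times in the stretch on chromosome 6. Other WT regions, as on chromosomes 6 and 9, can lie wholly within a common region.

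The member with the longest shorter flank lay at chr9:51236357-51236758. It was 402 bp long with a score of 4.72, between common regions of 8531 and 8764 bp, and stood at position 0.492 of a stretch of 17574 bp, with its midpoint 8654 bp from the nearer end. It overlapped its flanks over 30.6% of its length, and a second WT region lay in the same stretch.

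Members were found on each of the 18 autosomes, at densities that varied between them. They numbered 4.87 per 100 common regions, with a median of 4.77 over the autosomes and a range from 3.50 on chromosome 16 to 6.98 on chromosome 12. Chromosomes 2 (5.95) and 5 (5.71) came next to 12, and chromosomes 19 (3.87) and 11 (4.04) next to 16. For flanked KD regions the density was 6.26 per 100, lowest on chromosome 2 (3.19) and highest on chromosome 19 (10.2). Flanked WT regions outnumbered flanked KD regions on 3 of 18 autosomes, with 190 against 102 on chromosome 2, 115 against 63 on chromosome 12 and 109 against 101 on chromosome 6. As a share of the WT regions of a chromosome, members ranged from 31.4% on chromosome 1 to 47.1% on chromosome 19. On every one of the 18 this exceeded the share of flanked regions among KD regions, which ranged from 13.5% to 24.9%. The median score of members ranged from 4.67 on chromosome 12 to 7.76 on chromosome 17, so chromosome 12 had the highest density of members and the lowest median score of the 18.

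**Figure D5:**
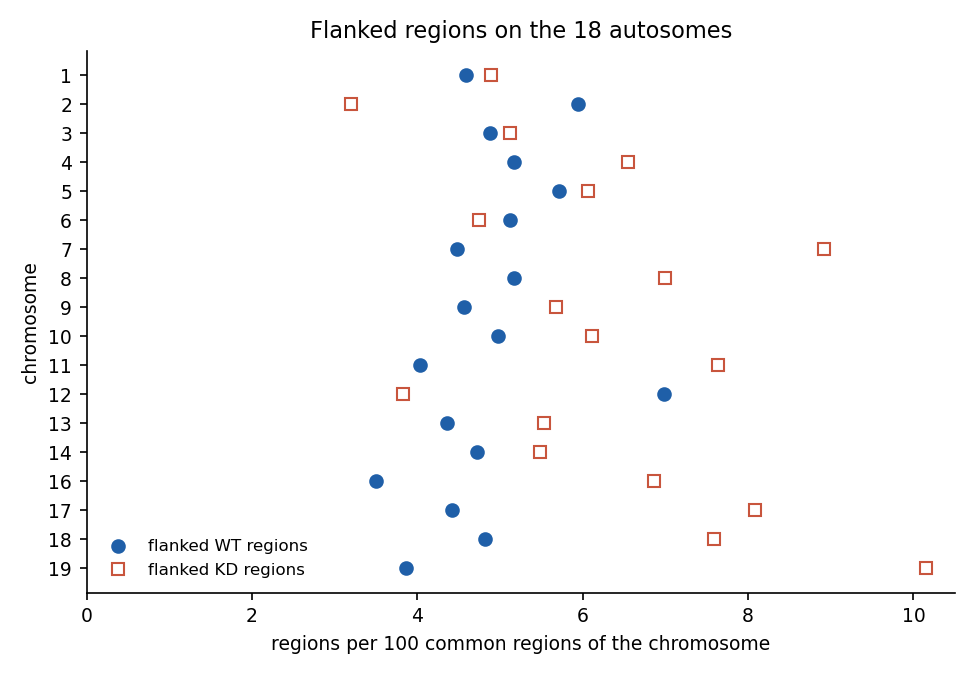
Flanked WT regions (filled circles) and flanked KD regions (open squares) per 100 common regions of each of the 18 autosomes (horizontal axis, from 0). Flanked WT regions lie between 3.50 and 6.98 and flanked KD regions between 3.19 and 10.2, and the circle lies to the right of the square on chromosomes 2, 6 and 12.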

How the data were processed

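The submitters' processing notes name MACS2 2.2.6, Bowtie2 2.2.9, SAMtools 1.6 and the build GRCm39. Settings, and whether replicates were pooled, are not stated in the labels or headers. The deposited score is 1 value per region, above 3 in the KD and WT lists and below 3 in the common list, and the headers do not define it. Lists were read as deposited with pandas 2.3.3 in Python 3.11.15, summarised with scipy 1.17.1 and numpy 2.4.6, and drawn with matplotlib 3.10.9. Coordinates are 1-based. An overlap counted as contact. A region wholly within 1 common region has no 2 flanks and was not a member. The class of contact was tested on 2000 simulated regions and flanks and positions on 512, and 100% came out right in both. Each simulated stretch held 1 WT or KD region with no common region inside it, and overlaps were shorter than the longest among the members. Stretches with more regions, and the number of members per stretch, were not covered. Named regions are the 10 highest-scoring members, the stretches with the most members (ties included) and the member with the longest shorter flank. Gene lists, cell type markers, positions at genes and sequence composition were planned but not analysed here, since the gene table is for GRCm38.p6. The members and lists were chosen with earlier results of these data known.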

Additional observations from a re-analysis of the deposited data

How the results depend on the processing

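The median folded position lay between 0.361 and 0.382 under all 11 alternatives run, 3 of which were chosen after seeing the data (no overlap, regions within 1 common region, stretches of 3 regions). Of 95 alternative values, 48 stayed within the interval of the reported value or, for counts and densities, within 1.5 times of it. For the shifts given next, the cause was not tested. Raising the score limit to 5 left 1179 members (2.92 per 100 common), with a median score of 8.25 and flanks of 1168 and 2306 bp. They were 43.0% of the WT regions that scored at least 5, and 97.3% of their stretches held 1 member. Of the KD regions that scored at least 5, 12.6% were flanked. Below 500 bp, members were 26.4% of WT regions, the median score was 5.18, the longer flank 2171 bp, 94.6% of stretches had 1 member and 14.1% of KD regions were flanked. With no length limit the shares were 42.6% and 20.98%, and the shorter flank was 895 bp. A gap of 100 bp gave 21.997% of KD regions. A gap of 1 kb gave 44.0% of WT and 28.1% of KD regions, a shorter flank of 883 bp, a folded position of 0.361 and 90.1% of stretches with 1 member. Stretches without a KD region gave 33.7% of WT regions, a score of 5.50 and flanks of 889 and 1929 bp. With chromosomes 15 and X, 20.1% of KD regions were flanked. Without overlap, 368 members were left (7.34% of WT and 1.12% of KD regions, 0.911 per 100 common), with a score of 9.12, flanks of 1381 and 2583 bp and 100% of stretches with 1 member. Including regions within 1 common region gave 46.3% of WT and 27.4% of KD regions, a score of 5.05 and 89.7% of stretches with 1 member. Stretches of 3 regions alone gave 1247 members (24.9% of WT and 7.72% of KD regions, 3.09 per 100 common), a score of 6.27, flanks of 1092 and 2148 bp and a folded position of 0.382. No paired analysis was possible because each region has 1 value for all replicates, so none of these could be left out either. Alternatives on gene starts and base composition were not run for want of an annotation or genome of the build. The depth behind the lists is unknown.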

Other observations

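WT regions that met the rule except for 1 of its limits are given here as values. The 170 WT regions of 1000 bp or more with a common region at each end had a median length of 1280 bp, a maximum of 5069 bp, a median score of 6.55 and a median folded position of 0.399. The 356 WT regions wholly within 1 common region were short and scored low, with a median length of 259 bp, a median score of 3.47 and a highest score of 4.12. Their median folded position in the stretch was 0.337, against 0.243 for the 1062 KD regions wholly within 1 common region, which had a median length of 264 bp and a median score of 3.50.

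On chromosomes left out of the rule, 52 WT regions of chromosome 15 and 55 of X met its other conditions, 2.48 and 7.17 per 100 common regions. Flanked KD regions numbered 21.2 per 100 on chromosome 15 and 1.04 on X. The median folded position of the flanked WT regions was 0.338 on chromosome 15 and 0.362 on X, and their median scores were 6.09 and 4.34.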
